A study of Mus musculus with 2 samples.

Results

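The regions described here are open chromatin peaks of mouse cortex in which no protein footprint was called. DNase-seq had been done on nuclei of the left cerebral cortex from 2 female B6CASTF1/J mice, each 10 days old. This strain is the first-generation cross of C57BL/6J and CAST/EiJ, a wild-derived strain, and no treatment or other tissue was labelled. The libraries, called replicate 1 and replicate 2 below, formed 1 group. Members were taken among shared peaks, meaning peaks of replicate 1 that overlapped a peak of replicate 2 by at least 1 bp, on the 19 autosomes. A shared peak was a member when it overlapped no footprint of either library. Of 49590 shared autosomal peaks, 1923 were members (3.88%, 95% Wilson interval 3.71 to 4.05), and the other 47667 held a footprint. Members were thus chosen by measured values, the peak bounds of replicate 1 and the footprints of both libraries, so the missing footprint itself is a description and carries no test.

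DNase I cuts DNA wherever it is not shielded by a nucleosome or another protein. A stretch of dense cutting is called as a peak, and promoters and enhancers make up most of such stretches in any tissue. A transcription factor that stays on its site shields a few bases inside the peak, which then show up as a short dip in cutting, the footprint. Factors that leave their site quickly often give no dip, and a dip can only be seen where there are enough cuts around it. At active promoters the open stretch before the start site is followed by a well-placed nucleosome just inside the gene.

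Some of the strongest members, and a footprinted peak close to one of them in signal and width, are shown first, because they carry the contrast in letters. All sequences are the plus strand of mm10, written 5′ to 3′, and capitals mark bases inside a footprint of either library. A member has no capitals by definition. No stretch of more than 30 bases of an annotated untranslated region was printed, and each region was named by the nearest start of a coding gene. The first line below is the member of highest signal, which lay between genes with Wnt7b as its nearest coding gene (chr15:85634661-85634720), with 120 bases on each side. The next set is the member before the start of Tsnaxip1 (chr8:105827581-105827720), its stronger neighbour (the stretch chr8:105827351-105827480), and the comparable footprinted peak in an intron nearest to Toe1 (chr4:116789081-116789220).
Wnt7b: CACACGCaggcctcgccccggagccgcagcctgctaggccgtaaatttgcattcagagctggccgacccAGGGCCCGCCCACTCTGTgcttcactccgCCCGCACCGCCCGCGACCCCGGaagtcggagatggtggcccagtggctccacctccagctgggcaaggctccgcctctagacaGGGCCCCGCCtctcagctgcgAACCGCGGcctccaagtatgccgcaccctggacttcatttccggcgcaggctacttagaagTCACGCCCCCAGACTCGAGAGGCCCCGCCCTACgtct
Tsnaxip1: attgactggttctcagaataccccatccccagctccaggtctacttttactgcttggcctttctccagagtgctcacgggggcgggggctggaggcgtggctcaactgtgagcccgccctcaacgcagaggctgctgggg
Tsnaxip1 neighbour: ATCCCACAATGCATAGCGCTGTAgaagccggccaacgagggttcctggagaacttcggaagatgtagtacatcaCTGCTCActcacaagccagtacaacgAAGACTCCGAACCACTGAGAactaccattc
Toe1: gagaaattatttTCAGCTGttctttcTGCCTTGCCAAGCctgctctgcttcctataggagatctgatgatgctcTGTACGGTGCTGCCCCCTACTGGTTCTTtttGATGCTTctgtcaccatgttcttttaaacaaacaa
The 60 bases of the Wnt7b member lie in the middle of its line, bordered on both sides by footprints. That line held 98 footprint bases and 26 CpG sites in 300 bases, of which the member itself held 2 CpG sites. In the Toe1 peak, 55 of 140 bases were in footprints, and a shortened CTCF consensus lay wholly inside footprint bases. CTCF is the zinc-finger protein that anchors chromatin loops. The Tsnaxip1 member, of the same width, held the letters GGGGCGGGG of Sp and Klf factors and no footprint.

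The member just inside Shc1 (chr3:89418701-89418900) is added as one that lay downstream of its start.
Shc1: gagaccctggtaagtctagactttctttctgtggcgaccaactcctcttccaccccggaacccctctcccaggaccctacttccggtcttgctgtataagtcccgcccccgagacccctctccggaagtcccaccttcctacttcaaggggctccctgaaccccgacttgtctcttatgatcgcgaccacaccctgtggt
It held 9 CpG sites and no footprint base in 200 bases.

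The Wnt7b member stood apart from all other members in signal. Peak signal is 1 value per peak, which the authors scaled by library on a scale not given in the sources used here. It was 5.23 in replicate 1 and 9.95 in replicate 2, while the next strongest member by its lower library, inside the histone gene Hist3h2a, had 1.97 and 2.33; by mean signal the Tsnaxip1 member came next. In replicate 1 the Wnt7b peak was 60 bp wide, and the peak of replicate 2 that it overlapped was 360 bp wide. The nearest footprint was 2 bp from the member in replicate 1 and 1 bp in replicate 2, counted between the closest bases, and the overlapping peak of replicate 2 reached over them. Wnt7b encodes a secreted Wnt ligand, and the member's middle lay at -52218 bp from its start, negative meaning upstream.

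The other strong members named here lay at promoters beside a stronger peak. The Hist3h2a member (chr11:58954881-58955140) had its middle 326 bp downstream of the start. Its neighbour at the start had signals of 4.70 and 5.26 in replicates 1 and 2. The histone sequence occurs up to 20 times in the genome, and 77.3% of the member's 36-base windows were found once, so reads there may have been split among copies and its signal is uncertain. The Tsnaxip1 member had 1.86 and 2.96 in replicates 1 and 2 and its neighbour 7.23 and 8.80. The Ahcyl2 member, at the start of a gene of the S-adenosylhomocysteine hydrolase family, had 1.85 and 2.44, and its neighbour 3.46 and 5.96. The Shc1 member had 1.59 and 1.77, and the neighbour 4.79 and 7.11, at a gene whose product is an adaptor of receptor tyrosine kinases. In each of these 4 promoter pairs the neighbour was the stronger peak in both libraries and held footprints.

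Members were mostly weak peaks, which the missing footprint goes along with and which is given as a description. In bulk tissue, fewer cells open at a site and less opening per cell cannot be told apart. Their median signal was 0.553 in replicate 1 and 0.682 in replicate 2, whereas footprinted peaks had medians of 0.962 and 1.24. Signal values were whole multiples of 1 step in each library, and the median member had 80 steps in replicate 1 and 90 in replicate 2, against 139 and 163 in footprinted peaks. Of the weakest decile of shared peaks by mean signal, 13.4% had no footprint (663 of 4959). The share was 3.09% in the fifth decile and 2.42% in the sixth, and in the strongest decile it was 0.0202%, 1 peak of 4959, the Wnt7b member.

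Width split the members in both directions. The median member was 142 bp wide, and the interquartile range was 81 to 240 bp, against a median of 200 bp and an interquartile range of 160 to 240 bp in footprinted peaks. No footprint was called in 15.8% of peaks under 100 bp (644 of 4086), in 2.43% of those of 100 to under 240 bp (792 of 32615) and in 3.78% of those of 240 bp or more (487 of 12889). Both the narrow and the wide class were thus above the middle class, and within each of the 7 weakest deciles of signal the same was seen. In the third decile, for example, the shares were 12.1% of narrow, 3.75% of middle and 12.4% of wide peaks. These width classes were chosen after the widths had been seen.

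**Figure D1:**
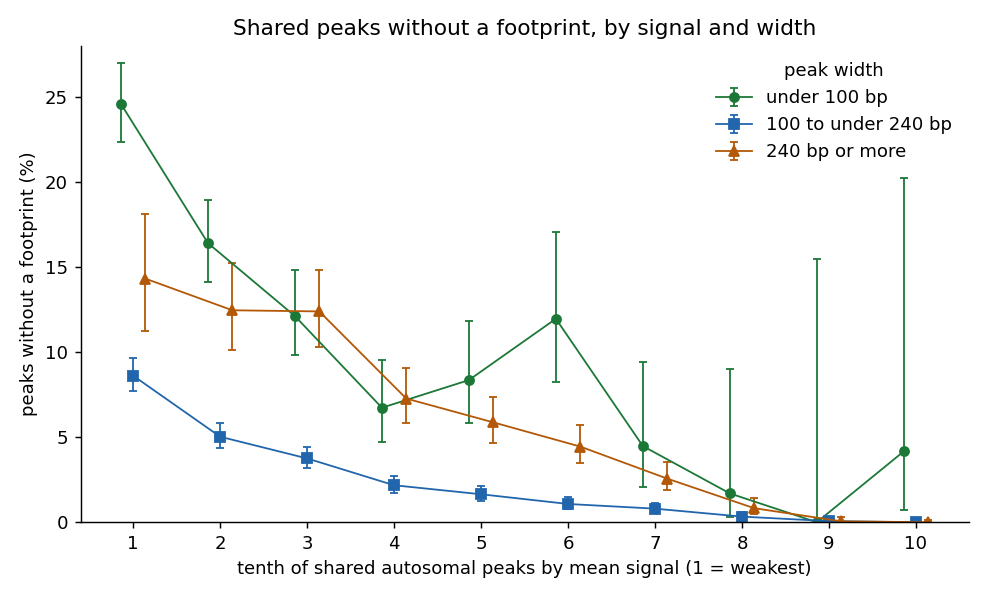
Share of shared autosomal peaks without a footprint (%) by decile of mean signal, for 3 width classes, with 95% Wilson intervals. The share falls with signal in the middle class, to 0 of 2244 peaks in the strongest decile (upper Wilson limit 0.171%), and lies higher in narrow and wide peaks over the weakest deciles; the narrow class has few peaks in the strongest deciles (24 in the last).

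The 3 widest members were promoter peaks too. They were 960 bp wide near Snph, which encodes syntaphilin, the anchor of axonal mitochondria, 780 bp near Il3ra, a cytokine receptor subunit, and 720 bp near Hmgn3, a nucleosome-binding protein. Their signals in replicates 1 and 2 were 0.408 and 0.879 at Snph, 0.553 and 0.394 at Il3ra, and 0.906 and 1.55 at Hmgn3. The peaks of replicate 2 set against them were 52 bp wide at Snph, 220 bp at Il3ra and 260 bp at Hmgn3.

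Not every member was far from a footprint, since the rule reads only the peak's own bases. The nearest footprint of either library was 1 to 10 bp outside 196 members (10.2%), 11 to 100 bp outside 437 (22.7%) and more than 100 bp outside 1290 (67.1%). Members within 10 bp had a median width of 71 bp and signals of 0.457 and 0.561 in replicates 1 and 2. On the other side of the threshold, 114 peaks had footprints covering only 1 to 3 bp in all, with a median width of 64 bp and signals of 0.505 and 0.678. Because the bounds were those of replicate 1's peak, 489 members (25.4%) overlapped a peak of replicate 2 that held a footprint, and 1434 held none in either library's peak. The median width of these 489 was 77 bp in replicate 1 and 203 bp in replicate 2. All 1923 members lay wholly within positions listed with a false discovery rate of the cut rate in replicate 1, and 1847 did so in replicate 2. The same held for 47664 and 46212 of the 47667 footprinted peaks.

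Unless stated otherwise, every comparison below sets members against footprinted peaks weighted to the members' mix of signal and width, in 10 classes of mean signal by 5 of width, and called standardised. After weighting, the mean log2 signal was -0.68 in members and -0.59 in standardised peaks, and the mean width 174 and 170 bp, so a small difference of signal was left. Intervals are 95% and cover counting error only. Peaks are not replicates of a condition, so they do not speak for other animals, and no p-value is given. Where an interval lies wholly on one side of 0, the difference is larger than the counting error of peaks taken as independent. Some members overlapped each other, as near Fbxl20, so that error may be understated. The differences over all widths and positions, and those of the zones around coding starts, were also computed from the footprints of 1 library at a time, sets that contain the 1923 members; comparisons within a width class, or within peaks near starts or away from them, were not. The peaks set against them hold, by the same weighting, a median of 2 footprints in each library.

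The footprints of the 2 libraries were called separately, and how often both left a peak without one is a description, since these calls chose the members. Of 3909 shared peaks with no footprint in replicate 1, 1923 (49.2%) had none in replicate 2 either, compared with 16.7% of standardised peaks that did have one in replicate 1. Read the other way, 43.7% of 4402 peaks without a footprint in replicate 2 had none in replicate 1, against 14.2% of standardised peaks with one. A footprint was found in replicate 2 alone in 1986 peaks and in replicate 1 alone in 2479.

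Members lay at promoters far more often than comparable footprinted peaks. Within 1 kb of an annotated start site were 1265 of 1923 members (65.8%), compared with 22.5% of standardised peaks, a difference of 43.3 percentage points (41.0 to 45.5). Without the weighting, 35.7% of footprinted peaks were near a start. Between genes lay 19.03% of members against 40.8% of standardised peaks, in introns 13.8% against 33.4%, and in exons 1.40% against 3.35%. Seen from the positions, 6.91% of all shared peaks near starts had no footprint, 2.41% of those between genes, 1.83% of those in introns and 1.67% of those in exons. The difference near starts was smaller when 1 library decided. It was 24.96 points by the footprints of replicate 1 alone (46.3% against 21.3%) and 30.2 points by those of replicate 2 alone (50.5% against 20.3%). The difference between genes was -21.7 points, against -12.3 by replicate 1 alone, -15.9 by replicate 2 alone and -9.10 in the larger lists. Near starts it was 15.4 points in the larger lists, with 32.7% of 7452 peaks without a footprint near a start against 17.4% of standardised peaks.

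Most of the wide members were promoter peaks. Of members of 240 bp or more, 89.1% were near a start, against 37.1% of standardised peaks. The shares were 68.1% against 16.5% at 100 to under 240 bp, and 45.3% against 19.1% under 100 bp. Members near starts had a median width of 195 bp and signals of 0.616 and 0.766 in replicates 1 and 2. Those between genes were narrower and weaker, with a median of 94 bp, 0.415 and 0.481.

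**Figure D2:**
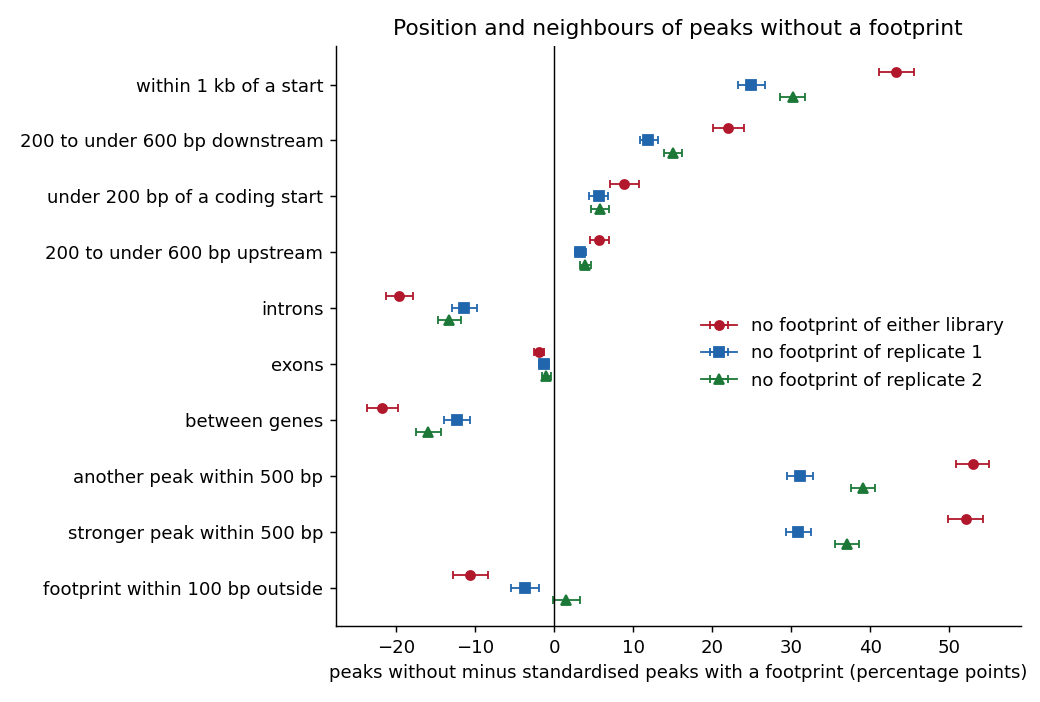
Difference in percentage points between peaks without a footprint and standardised peaks with one, for position and neighbourhood, by both libraries together and by each alone; points are estimates and bars 95% intervals of counting error. The differences near starts and in neighbouring peaks lie right of 0 in all 3 sets, those of introns, exons and regions between genes left of 0, and the one for footprints in the flank lies left of 0 by both libraries together and by replicate 1 alone, with a bar that reaches across 0 by replicate 2 alone.

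Around coding start sites the members lay more often in a zone just inside the gene. Of members, 1199 had their middle within 1 kb of a coding start, and 481 of these (40.1%) lay 200 to under 600 bp downstream of it, against 18.7% of standardised peaks, a difference of 21.4 points (18.3 to 24.6). These shares, and those of the zones below, are of peaks within 1 kb of a coding start, unless stated otherwise. The stretch less than 200 bp from the start, where the open promoter core lies, held 31.9% of these members against 52.8% of standardised peaks. Over all 1923 members that stretch was commoner than in standardised peaks, with 19.9% against 10.99% (7.10 to 10.8 points). At 200 to under 600 bp upstream the shares were 12.2% and 10.2%, and the interval of the difference held 0 (-0.05 to 4.22 points). Over all members they were 7.59% and 1.93%, with an interval above 0 (4.54 to 6.95 points). At 600 to 1000 bp downstream lay a smaller share of members than of standardised peaks, 9.84% against 12.6% (-2.73 points, -4.73 to -0.52). In the first 100 bp of this zone, from 600 to under 700 bp, the shares were 5.59% of members and 4.56% of standardised peaks. Counted over the positions and without weighting, 26.9% of the 1786 shared peaks 200 to under 600 bp downstream of a coding start had no footprint, compared with 3.26% of the 11701 less than 200 bp away. At 600 to 1000 bp downstream the share without a footprint was 13.5% of 875 peaks. Upstream it was 9.83% of 1486 at 200 to under 600 bp and 10.7% of 676 at 600 to 1000 bp. In steps of 100 bp, the share was highest from 300 to under 400 bp downstream, where 160 peaks, or 33.3%, had none. By footprints of replicate 1 alone the downstream zone held 34.1% of such peaks against 18.3%, and by replicate 2 alone 36.5% against 14.3%. These zones were chosen after the positions had been seen.

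**Figure D3:**
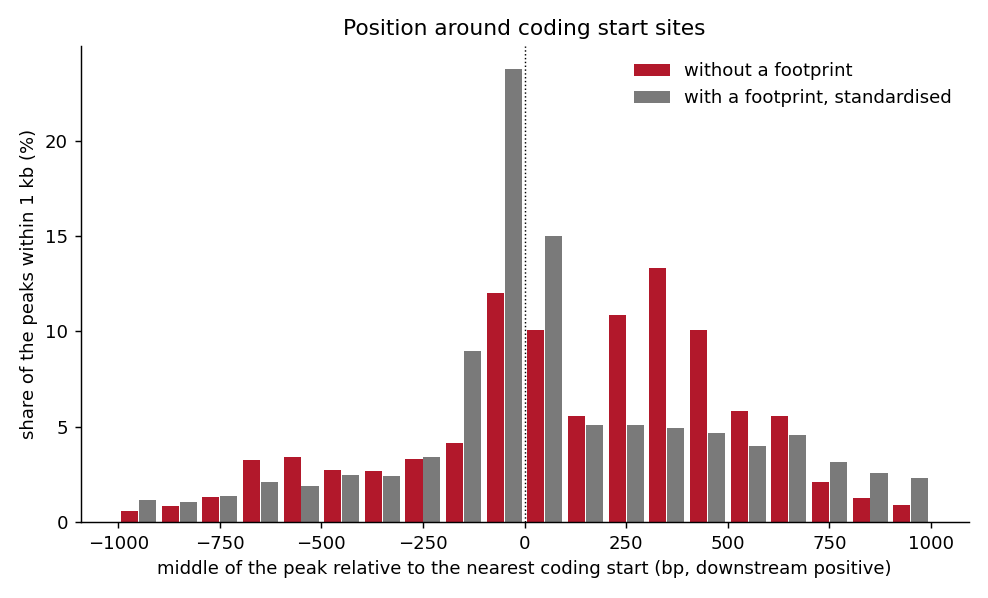
Distance of the peak's middle from the nearest coding start (bp, downstream positive), as a share (%) of peaks within 1 kb, for the 1199 members and for standardised footprinted peaks. Footprinted peaks pile up in the 100 bp before the start (23.8%), whereas members have a further mound at 200 to under 600 bp downstream.

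The downstream members mostly had another open peak at the start. A peak counted as at the start when it overlapped the 200 bp on either side of it by at least 1 bp. Where more than 1 did, the strongest in replicate 1 was taken, which can raise the ratios below. Of the 481, 435 (90.4%, 87.5 to 92.8) had another shared peak there, whereas 752 of 1305 footprinted peaks of the same zone did (57.6%, 54.9 to 60.3). In 421 of these 435 pairs (96.8%) the peak at the start held a footprint, a share like the 96.3% (724 of 752) for footprinted peaks of the zone. In 411 (94.5%) it was stronger than the member in both libraries, against 499 (66.4%) for the footprinted peaks. Its signal was 4.24-fold that of the member at the median in replicate 1 and 5.23-fold in replicate 2. For the footprinted peaks of the zone the same ratio was 1.47-fold and 1.63-fold. The members of the zone had median signals of 0.602 and 0.713, and its footprinted peaks 0.920 and 1.27. No weighting for signal was used in this paragraph, so the 2 groups differ in signal as stated.

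A close neighbour was the property by which members differed most from comparable peaks, among those listed here as shares. Another peak of replicate 1 lay within 500 bp of 1326 members (69.0%), compared with 16.01% of standardised peaks, a difference of 52.9 points (50.8 to 55.0). By the footprints of replicate 1 alone the difference was 31.04 points, by those of replicate 2 alone 39.0, and in the larger lists 19.1. A stronger neighbour stood beside 60.4% of members and 8.34% of standardised peaks. Of the 1326 neighbours, 1161 (87.6%) were stronger than the member, against 35.4% of the 9600 neighbours of footprinted peaks, without weighting. A footprint was in 1077 (81.2%) of the members' neighbours and in 75.9% of the others. Near starts those shares were 81.2% and 72.7%, and farther away 81.4% and 83.1%. At the median the neighbour's signal was 2.45-fold the member's in replicate 1 and 3.09-fold in replicate 2, where 1238 neighbours had an overlapping peak. The median distance was 181 bp, with an interquartile range of 101 to 281 bp. This measure was added after the data had been seen.

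The neighbour was not limited to promoters, but was commoner there. Near starts 87.4% of members had one within 500 bp, against 40.2% of standardised peaks near starts. Farther from starts 33.6% did, against 6.93%. The neighbour was 2.82-fold as strong as the member near starts and 1.55-fold farther away, in replicate 1 at the median. Of the peaks in replicate 1's larger list that enclose the members, 426 (22.2%) held a footprint, and 225 members (11.7%) shared their enclosing peak with another peak of the smaller list.

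**Figure D4:**
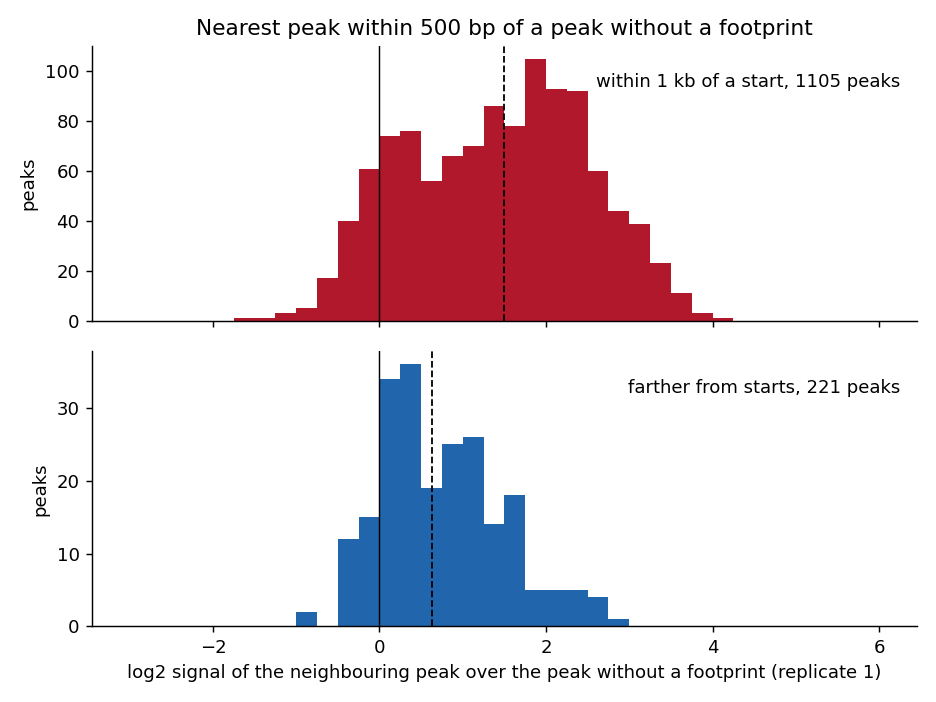
Log2 ratio of signal in replicate 1, neighbouring peak over member, for the 1326 members with a peak within 500 bp; the upper panel holds the 1105 near a start site and the lower the 221 farther away. The solid line marks equal signal and the dashed line the median; the ratios lie mostly right of equality in both panels, with medians of 1.497 near starts and 0.63 farther away.

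The members' DNA was richer in CpG than that of comparable peaks, and no letter had entered the rule. The ratio of CpG observed over expected averaged 0.547 in members and 0.343 in standardised peaks, a difference of 0.204 (0.188 to 0.219). GC content averaged 57.3% against 51.3%. By replicate 1 alone the CpG difference was 0.123 and that of GC content 3.61 points, and in the larger lists they were 0.0668 and 2.35 points. Part of the difference went with position. Among peaks near starts CpG observed over expected was 0.684 in members and 0.584 in standardised peaks, a difference of 0.1001 (0.0819 to 0.118). Without the weighting, footprinted peaks near starts lay above the members, with 0.717 and a GC content of 62.1% against 61.6%. Farther from starts the means were 0.283 and 0.249, a difference of 0.0340 (0.0104 to 0.0576), and for GC content 48.8% and 48.4%, with an interval that held 0.

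**Figure D5:**
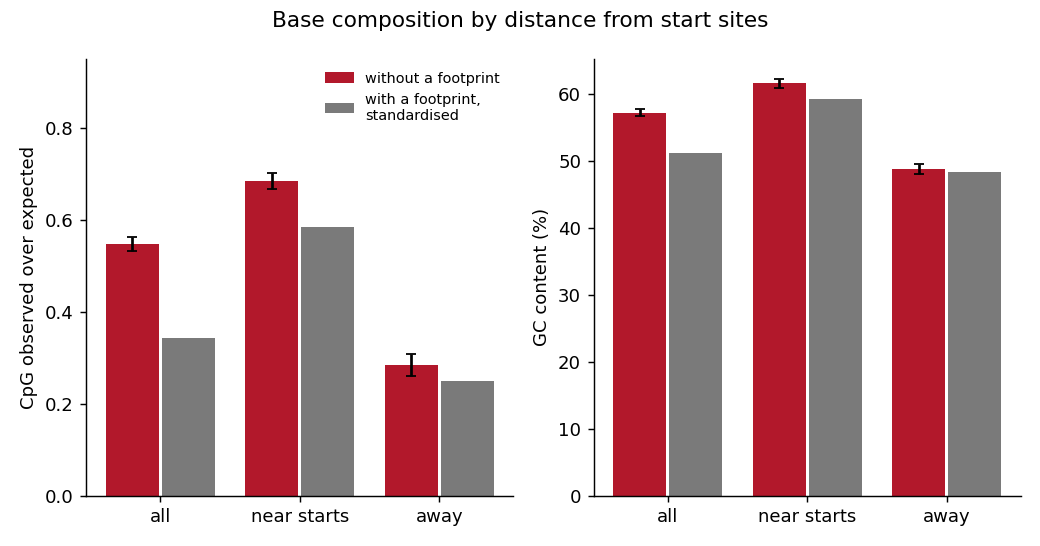
Mean ratio of CpG observed over expected (left) and mean GC content in % (right) of members and of standardised footprinted peaks, over all, near start sites and away from them; error bars on the members' bars show the 95% interval of the difference. Members are higher than standardised peaks near starts in both measures (0.684 and 61.6% against 0.584 and 59.3%), and away from starts the bars are closer.

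Differences in repeats and in copies of the sequence were small. Soft-masked repeats covered 7.02% of members' bases and 7.87% of those of standardised peaks, a difference of -0.86 points (-1.55 to -0.16), and near starts as well as away from them the interval held 0. Windows of 36 bases found once in the reference made up 98.8% in members and 98.6% in standardised peaks, with an interval of the difference that held 0 (-0.23 to 0.57 points). Near starts the share was 0.94 points higher in members, with an interval above 0 (0.46 to 1.43 points), whereas farther away it held 0. Fewer than 50% of windows were unique in 0.553% of members near starts against 1.44% of standardised peaks (-0.89 points, -1.39 to -0.17). Over all positions, every window was unique in 1818 members (94.5%), and fewer than 50% of them in 15. Dinucleotide repeats of 6 units lay in 1.30% of members and 1.65% of standardised peaks, and runs of 12 A or T in 0.676% and 0.637%; both intervals held 0.

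Whether footprints stood just outside the members depended on the setting. Within 100 bp outside the peak, 32.9% of members had a footprint, against 43.5% of standardised peaks (-10.6 points, -12.8 to -8.34). Near starts the shares were 20.2% and 45.1%, a difference of -24.8 points. Farther from starts they were 57.3% and 51.7%, a difference of 5.56 points (1.36 to 9.69) in the other direction. By replicate 2 alone the shares over all peaks were 42.4% and 40.8%, and the interval of the difference held 0 (1.57 points, -0.09 to 3.23). Within 50 bp outside the peak, 25.5% of members and 39.2% of standardised peaks had a footprint, and by replicate 2 alone the difference lay below 0 as well (-2.19 points, -3.79 to -0.56). In the larger lists the direction within 100 bp turned, with 28.5% and 22.6%.

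Most motif differences were towards fewer matches in members. Of 20 short motifs, searched on both strands, 9 (45%) were rarer in members than in standardised peaks by an interval below 0, 3 (15%) were commoner, and for 8 the interval held 0. Each of the 12 differences past 0 had the same direction by either library alone. The shortened CTCF consensus was in 38 members (1.98%), against 7.27% of standardised peaks and 12.4% of all shared peaks, a difference of -5.29 points (-5.93 to -4.49). Both near starts (1.74% against 4.61%) and farther away (2.43% against 7.02%) the interval lay below 0. In the larger lists the difference was -2.39 points, and among the stronger 50% of peaks it was -10.8 points.

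The E-box CATCTG, bound by proneural and other bHLH proteins, was in 12.5% of members and 20.8% of standardised peaks (18.98% of all shared peaks), and the interval lay below 0 near starts and away from them. CCAAT, the core letters of the promoter factor NF-Y, was in 13.8% against 20.6% (25.7% of all), with the interval below 0 near starts and holding 0 farther away. CAGCTG was in 11.8% against 16.4% (16.7% of all). GGAATG of TEAD factors was in 7.33% against 9.81% (10.3%), TGANTCA of AP-1 in 4.58% against 6.70% (5.82%), ATGCNAAT of POU factors in 1.46% against 3.33% (2.87%) and TAATTA of homeodomain proteins in 1.30% against 3.55% (2.91%). The RFX consensus was in 1 member, 0.0520% against 0.497% (0.829%). Of these last 6 motifs, the interval farther from starts held 0 for all, and near starts it lay below 0 for the RFX consensus, the motif CAGCTG and the homeodomain motif.

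The motifs commoner in members each hold a CpG in their letters, as do, among others, the ETS and CREB motifs, whose intervals held 0. GGGGCGGGG, bound by Sp and Klf proteins at CpG-rich promoters, was in 86 members (4.47%), against 2.55% of standardised peaks and 6.34% of all shared peaks. CACGTG was in 4.78% against 3.60% (5.60% of all), and GCGTGGGCG of Egr factors in 10 members, 0.520% against 0.206% (0.502%). Among peaks near starts alone the interval held 0 for each of the 3, with 6.48% against 7.11% for GGGGCGGGG. Farther away it lay above 0 for CACGTG, with 3.04% against 1.85%. The 8 motifs whose interval held 0 were CCGGAAGT of ETS factors, TGACGTCA of CREB, AACAATGG of SOX factors, and the consensus sites of NRF1, NFI, MEF2, YY1 and ZNF143, named here without letters. Each of these 8 was in fewer than 30 members, down to 0 for ZNF143, which allows a share of up to 0.156%, so only large relative differences could be seen. Farther from starts the interval lay above 0 for the SOX motif, with 0.760% against 0.303% (0.01 to 1.47 points). It also did for the YY1 consensus, with 0.152% against 0.00230% (0.02 to 0.85 points). Both rest on very few peaks, since over all positions the SOX motif was in 10 members and the YY1 consensus in 4. No correction was made for the number of motifs and positions read. Matches overlap between motifs where one motif's letters are part of another's, and a match is not a bound site.

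Genes with a member at a start nearly always had a footprinted peak there too, which is given as a description. Of 11670 autosomal coding genes with a shared peak within 500 bp of a start, 1039 (8.9%) had a member there. At 1000 of these 1039 (96.2%) a footprinted shared peak was there too, and 39 genes had only members. These 39 were 0.334% of the 11670. A gene with a shared peak but no member there has a footprinted peak by the rule. The other genes therefore cannot serve as a comparison for this share.

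The labelled tissue was read from marker genes of cortical cells. A shared peak stood within 500 bp of a start at 29 of 61 autosomal markers, a lower share than the 11670 of 20780 autosomal coding genes. The lists differed, with 9 of 10 pan-neuronal, 6 of 10 excitatory and 5 of 8 astrocyte genes, but 2 of 10 interneuron, 3 of 7 oligodendrocyte, 2 of 8 endothelial and mural and 2 of 8 microglial genes. Of those 29 genes 1 (3.45%) had a member, against the 8.9% over all coding genes with a peak. It was Sox9, a transcription factor of astrocytes, whose member (chr11:112781521-112781840) had its middle at -543 bp from the start. Its signal was 1.24 and 1.16 in replicates 1 and 2, against 2.76 and 2.72 in the neighbour over the start, which held footprints.

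Members were found on every autosome. The share of shared peaks without a footprint ran from 3.001% on chromosome 4 (2.46 to 3.66) to 4.24% on chromosome 13 (3.48 to 5.15), and those intervals overlapped. The median log2 ratio of signal, replicate 2 over replicate 1, was 0.28 in members and 0.24 in standardised peaks, and in steps it was 0.15 and 0.11. The difference of the mean log2 ratio was 0.05 (0.04 to 0.07), with 0.30 in members and 0.24 in standardised peaks. It was 0.09 by the footprints of replicate 1 alone and turned to -0.03 (-0.05 to -0.02) by those of replicate 2 alone. The ratio varied among members with an SD of 0.36 on the log2 scale, against 0.35 in footprinted peaks as they stood.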

How the data were processed

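Each library's own alignments on mm10 gave its peaks, footprints and cut-rate positions, unpooled, per the file descriptions deposited with it; no source used here names the aligner, callers, versions or thresholds. The deposited peak signal is 1 value per peak, scaled by the authors; all values were whole multiples (within 0.01) of 0.00692 in replicate 1 and 0.00758 in replicate 2. The p-value column of the deposited footprints is 0.01 throughout, and the deposited cut-rate lists give a false discovery rate (a q-value) per position. The smaller of each library's 2 peak lists, of 60071 and 70563 peaks, was used. Autosomal footprints numbered 208264 and 219378. Read depth is unknown.

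Overlaps were made with bedtools 2.31.1. Start sites were those of GENCODE M21, sequence and repeat masking those of GRCm38.p6 (mm10), and a window was 36 bases. The reference is C57BL/6J, so CAST/EiJ variants were not read. Shares of standardised peaks came from direct standardisation, with intervals of the difference built from Wilson intervals, and this was tested on simulated data. An odds ratio of having no footprint between the libraries had been planned and is not given, because the same calls chose the members. Statistics used numpy 2.4.6 and pandas 2.3.3 in Python 3.11.15. The labels give the 2 animals separate numbers but the same donor identifier, so the spread between libraries joins animal and technical variation. Members, lists and measures were chosen with earlier results of these data known. Regions named are the 6 members of highest signal in their lower library, the 3 widest, those within 500 bp of a marker gene's start, and up to 4 printed members with their nearest footprinted peak. 1 of the 6 is not reported here. No sequence of chromosome 18 is printed.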

Additional observations from a re-analysis of the deposited data

How the results depend on the processing

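The number of shared peaks without a footprint followed the rule used. It was 1923 with both libraries, 3909 to 4402 with 1 library's footprints, 1003 with a reciprocal overlap of 50%, 7452 in the larger peak lists and 219 in the stronger 50% of peaks. Of 116 alternative values, 98 counted as the same as the main value. Among the 116 are alternatives of the odds ratio between the libraries, which is not given here, and all of these counted as the same. For differences, the same meant an unchanged direction and no change in whether the interval held 0. For the number of members it meant within 1.5-fold, and for the ratio of the libraries a median inside the main interval. Differences ran from 15.4 to 52.1 points near a start site and from 19.1 to 63.2 points for another peak within 500 bp, those of CpG observed over expected from 0.0668 to 0.253 and of the CTCF letters from -10.8 to -2.39 points. The footprint in the flank turned to 5.83 points in the larger lists, ranged from -3.68 to 1.57 points with 1 library left out, and was -1.72 points, its interval holding 0, in the stronger 50%. There the repeat-masked difference was -1.27 points, its interval also holding 0. The difference in unique windows was 0.50 points in the larger lists, its interval above 0, and turned to -0.33 in the stronger 50%. The median log2 ratio of the libraries was 0.22 to 0.33 with 1 library left out, 0.23 with reciprocal overlap, 0.18 in the larger lists, 0.48 in the stronger 50%, 0.23 with no footprint in replicate 2's peak either, and 0.15 in steps. The cause of these shifts was not tested. Leaving out peaks whose windows were not all unique, and requiring no footprint in the overlapping peak of replicate 2, were added after the data had been seen, as were all alternatives for the neighbouring peak and the downstream zone. No paired analysis was possible because the libraries formed 1 group. The low signal of the peaks, a median of 80 steps in replicate 1 and 90 in replicate 2, limits what each can show.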
